A study of Mus musculus with 8 samples.

Results

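Accessible chromatin around 4 inhibitory receptor genes, Tigit, Pdcd1, Lag3 and Havcr2, was examined in mouse regulatory T (Treg) cells by ATAC-seq, in which a transposase inserts sequencing adapters into open DNA. The members are all sites of the authors' table of counts whose midpoint lies, on the mouse build mm9, in chr16:43620000-43700000 (the Tigit window, 80 kb), chr1:95910000-95980000 (Pdcd1, 70 kb), chr6:124840000-124875000 (Lag3, 35 kb) or chr11:46240000-46310000 (Havcr2, 70 kb). These are 72 of 79758 sites, with 20 in the Tigit window, 26 in the Pdcd1 window, 13 in the Lag3 window and 13 in the Havcr2 window. Within a window the sites are numbered by position, so that Tigit site 11 is the eleventh from the window's start. The gene annotation used here belongs to another build. No site is therefore called a promoter, exon or intron, and genes beside the receptor may fall inside its window. In the RefSeq gene order the neighbouring genes are Zbtb20 and Drd3 beside Tigit, Neu4 and Fam174a beside Pdcd1, Cd4 and Ptms beside Lag3, and Med7 and Gm12169 beside Havcr2.

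The cells were sorted from spleen and lymph nodes of mixed bone marrow chimeras, hosts in which marrow cells from different donors develop side by side. There were 4 groups of 2 libraries: Pggt1b-deficient eTreg (effector Treg) cells, Pggt1b-deficient cTreg (central Treg) cells, WT eTreg cells and WT cTreg cells. Pggt1b encodes an enzyme subunit needed for protein prenylation, the attachment of a lipid anchor to small GTPases. The sources used here do not give the allele, the promoter behind the deletion, the age of the animals or the markers that separated eTreg from cTreg cells. Nor do they state that replicate libraries derive from different animals, so the p-values reflect only how these libraries vary, and that variation may be technical. Without gene positions on mm9, neither the Treg label nor the loss of Pggt1b was checked at marker genes.

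The 4 receptors restrain lymphocytes and are known for high levels on activated and effector Treg cells. TIGIT, encoded by Tigit, binds CD155 on antigen-presenting cells and competes there with the activating receptor CD226. PD-1, encoded by Pdcd1, is engaged by the ligands PD-L1 and PD-L2 and recruits phosphatases that dampen signals of the T cell receptor and of CD28. LAG-3, encoded by Lag3, is related to CD4 and binds MHC class II, and TIM-3, encoded by Havcr2, is found on T cells that secrete interferon gamma and on activated Treg cells.

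The promoter set used here held 3 of the 4 genes and no entry for Lag3. The promoters of Tigit, Pdcd1 and Havcr2, 250 bases before to 50 after the start, are shown. They were matched by gene symbol and come from RefSeq on GRCm38.p6: chr16:43664135-43664434 on the minus strand for Tigit, chr1:94052504-94052803 on the minus strand for Pdcd1 and chr11:46454681-46454980 on the plus strand for Havcr2. These positions cannot be compared with those of the sites, which are on mm9. Capitals mark matches to the motifs searched.
Tigit: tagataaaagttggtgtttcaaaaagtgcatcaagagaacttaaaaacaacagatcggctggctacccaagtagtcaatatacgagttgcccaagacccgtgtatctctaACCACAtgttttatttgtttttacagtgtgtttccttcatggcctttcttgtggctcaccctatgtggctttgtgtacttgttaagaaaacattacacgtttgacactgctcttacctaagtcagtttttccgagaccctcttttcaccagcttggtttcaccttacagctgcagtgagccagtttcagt
Pdcd1: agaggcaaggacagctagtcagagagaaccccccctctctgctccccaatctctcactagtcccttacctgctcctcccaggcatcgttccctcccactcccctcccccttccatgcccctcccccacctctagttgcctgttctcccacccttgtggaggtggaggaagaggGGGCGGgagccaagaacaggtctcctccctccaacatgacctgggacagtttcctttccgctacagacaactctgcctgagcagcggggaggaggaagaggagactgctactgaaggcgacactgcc
Havcr2: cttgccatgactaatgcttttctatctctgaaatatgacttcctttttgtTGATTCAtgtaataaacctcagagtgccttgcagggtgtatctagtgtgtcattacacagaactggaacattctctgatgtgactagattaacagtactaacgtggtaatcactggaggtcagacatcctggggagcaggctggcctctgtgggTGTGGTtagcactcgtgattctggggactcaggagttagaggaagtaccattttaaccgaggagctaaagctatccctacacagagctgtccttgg

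Motifs were searched on both strands, and none of the matches overlapped. The Tigit promoter held the RUNX motif TGTGGT on the minus strand at bases 111 to 116, a motif that 16.8% of 32851 mouse promoters of this length hold. The Pdcd1 promoter held the GC box GGGCGG at bases 174 to 179, as do 35.7% of promoters. The Havcr2 promoter held the AP-1 motif TGANTCA at bases 51 to 57, present in 7.8% of promoters, and the RUNX motif at bases 205 to 210. No match was found in these windows to the NFAT motif TGGAAA (21.4% of promoters), the FOX motif TGTTTA (13.4%), the ETS motif CCGGAA (14.9%) or the TATA motif TATAAA (13.6%). The bases of the Pdcd1 promoter were 60.7% G or C, against 41.3% for Tigit, 45.3% for Havcr2 and a median of 52.7% over all promoters. Such matches describe letters and not bound sites.

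Libraries held 2255214 and 1664702 counts for Pggt1b-deficient eTreg cells and 7153991 to 14974253 counts for the other 6. At the 72 member sites the median count was 6 and 4 in the Pggt1b-deficient eTreg libraries, against 14 to 47 in the others. Of the 72 sites, 13 and 14 were empty in those libraries and 0 to 3 in each of the rest. Across the 66 member sites with enough counts for a test, log2 CPM correlated at r = 0.78 between the libraries of Pggt1b-deficient eTreg cells and at 0.957 to 0.969 within the other groups. CPM here are counts scaled to library size, with TMM factors that set the bulk of sites level between libraries.

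Summed over each window, accessibility differed little between groups. The Tigit window held 270 and 309 CPM in Pggt1b-deficient eTreg libraries, 246 and 269 in Pggt1b-deficient cTreg, 340 and 326 in WT eTreg and 288 and 299 in WT cTreg libraries. WT eTreg libraries were the highest of the 4 groups without overlap, at 1.13 times the WT cTreg mean and with the Pggt1b-deficient eTreg mean at 0.87 times the WT eTreg mean. The Pdcd1 window held 338 and 316 CPM in Pggt1b-deficient eTreg, 279 and 286 in Pggt1b-deficient cTreg, 352 and 355 in WT eTreg and 297 and 306 in WT cTreg libraries, again highest in WT eTreg. The Lag3 window averaged 56.4 ± 1.92 CPM in Pggt1b-deficient eTreg (SD, n = 2), 58.8 ± 4.69 in Pggt1b-deficient cTreg, 57.5 ± 0.244 in WT eTreg and 49.7 ± 1.71 in WT cTreg libraries. The Havcr2 window averaged 74.6 ± 4.17 CPM in Pggt1b-deficient eTreg (SD, n = 2), 73.7 ± 3.94 in Pggt1b-deficient cTreg, 84.3 ± 0.198 in WT eTreg and 70.8 ± 2.63 in WT cTreg libraries. With 2 libraries against 2 an exact permutation test cannot go below p = 0.33, so these sums were not tested. In such bulk libraries, more cells with an open site and wider opening in each cell cannot be told apart.

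**Figure D1:**
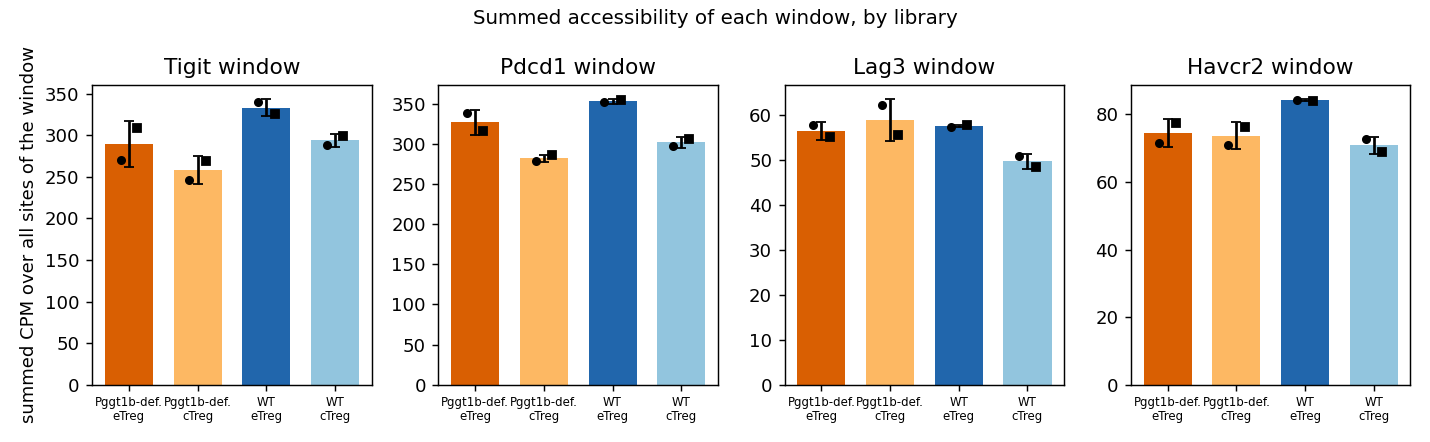
Summed CPM over all sites of each window (linear axis from 0), by group; bars are means, error bars SD over 2 libraries, and circles and squares are replicates 1 and 2. WT eTreg libraries are the highest group in the Tigit, Pdcd1 and Havcr2 windows, while in the Lag3 window the means run from 49.7 to 58.8 CPM.

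The window sums rest on a few strong sites, whereas the largest log2 fold changes between WT subsets lay at weaker ones. In CPM, the strong Tigit sites 12, 14 and 20 differed between WT subsets too. The most accessible site of the Tigit window by CPM, Tigit site 20 at chr16:43699061-43699959, averaged 103 CPM per kb of its length over the 4 groups. Its counterparts were Pdcd1 site 2 at chr1:95931486-95932121 with 255 CPM per kb, Lag3 site 10 at chr6:124867275-124867518 with 66.7 and Havcr2 site 2 at chr11:46250370-46250621 with 147. Lag3 site 10 and Havcr2 site 2 were called in none of the comparisons. Lag3 site 10 averaged 15.9 ± 0.955 CPM in Pggt1b-deficient eTreg, 15.3 ± 0.142 in Pggt1b-deficient cTreg, 18.9 ± 2.03 in WT eTreg and 14.5 ± 0.000411 in WT cTreg libraries (SD, n = 2). Havcr2 site 2 averaged 37 ± 0.407 CPM in Pggt1b-deficient eTreg, 41.8 ± 3.22 in Pggt1b-deficient cTreg, 33.7 ± 0.803 in WT eTreg and 35.3 ± 2.95 in WT cTreg libraries.

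The first comparison asked how the subsets of WT Treg cells differ at these genes. Of the 66 tested member sites, 18 were higher and 3 lower in WT eTreg than in WT cTreg cells (edgeR's quasi-likelihood test, adjusted p under 0.05 over all 75352 tested sites). That is 27.3% and 4.55% of the tested members, beside a background of 13.8% higher and 14.9% lower over all tested sites. The median log2 fold change was 0.39 over the members and 0.00 over all tested sites. The Tigit window had 8 higher and 2 lower of 19 tested sites, the Pdcd1 window 7 higher and 0 lower of 22, the Havcr2 window 2 higher and 0 lower of 13, and the Lag3 window 1 higher and 1 lower of 12. The count of 21 fell to 6 with every library thinned to the smallest. There the share called over all tested sites went from 28.7% to 14.6%. Omitting any single WT library also lowered both the count and that share, as did DESeq2 in place of edgeR.

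At Tigit the rise was centred on 4 neighbouring sites, numbers 10 to 13, within 6 kb, a run picked out after its values were seen. Tigit site 11, chr16:43661741-43662042, had 25 and 26.4 CPM in WT eTreg libraries, against 2.89 and 2.84 CPM in WT cTreg libraries. The groups lay far apart, with a log2 fold change of 3.16 ± 0.24 (SE; edgeR's adjusted p = 2.67e-13), and the call held under all 17 alternatives run. Tigit site 13, chr16:43665112-43665215, had 16.9 and 14.8 CPM in WT eTreg, against 5.38 and 5.37 CPM in WT cTreg libraries, a log2 fold change of 1.55 ± 0.23 (edgeR's adjusted p = 9.87e-07). Between them lies the wide and strong Tigit site 12, chr16:43664073-43664724, at 113 CPM per kb the densest of the window, where the difference was small. It had 100 and 92.1 CPM in WT eTreg, against 75.8 and 68.6 CPM in WT cTreg libraries, with no overlap and a log2 fold change of 0.41 ± 0.09 (edgeR's adjusted p = 0.000836, 0.0545 after omitting WT cTreg replicate 2). Tigit site 10, chr16:43659172-43659307, had 7.12 and 8.39 CPM in WT eTreg, against 2.73 and 2.69 CPM in WT cTreg libraries, a log2 fold change of 1.52 ± 0.32 (edgeR's adjusted p = 0.000264).

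The 2 falls of the Tigit window were at its wide sites toward the end of the window. Tigit site 14, chr16:43690171-43690803, had 29 and 36.5 CPM in WT eTreg, against 45.1 and 51.7 CPM in WT cTreg libraries, a log2 fold change of -0.55 ± 0.12 (edgeR's adjusted p = 0.000302). Tigit site 20 had 81.5 and 76.4 CPM in WT eTreg, against 96.7 and 105 CPM in WT cTreg libraries, a log2 fold change of -0.36 ± 0.09 (edgeR's adjusted p = 0.00156, 0.0698 after omitting WT cTreg replicate 2). The window's ratio of 1.13 thus joins rises of 4 sites around site 11 with falls at sites 14 and 20. The other 4 rises were at weak sites. Tigit site 1 (chr16:43620597-43620779), site 4 (chr16:43628662-43628767), site 5 (chr16:43629025-43629069) and site 15 (chr16:43694332-43694478) had log2 fold changes of 0.72, 1.35, 1.33 and 0.81, with edgeR's adjusted p of 0.0438, 0.0356, 0.0226 and 0.0234. None of these 4 calls withstood leaving out single libraries: site 1 gave 0.446 after omitting WT cTreg replicate 1, 0.0967 after omitting WT eTreg replicate 1 and 0.274 after omitting WT eTreg replicate 2. Site 4 gave edgeR's adjusted p of 0.272, 0.0983, 0.159 and 0.152 after omitting WT cTreg replicate 1, WT cTreg replicate 2, WT eTreg replicate 1 and WT eTreg replicate 2. Sites 5 and 15 gave 0.107 and 0.17 after omitting WT cTreg replicate 1, 0.174 and 0.116 after omitting WT cTreg replicate 2, and 0.278 and 0.203 after omitting WT eTreg replicate 1.

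At Pdcd1 the strongest site did not pass the test. Of 12 tested sites within 11.6 kb, 6 rose, all weaker than the strongest, again a run picked out after its values were seen. Pdcd1 site 2 had 159 and 159 CPM in WT eTreg, against 148 and 153 CPM in WT cTreg libraries (log2 fold change 0.08 ± 0.07, edgeR's adjusted p = 0.452). Pdcd1 site 16, chr1:95950029-95950415, had 35.9 and 36 CPM in WT eTreg, against 19 and 15.1 CPM in WT cTreg libraries, a log2 fold change of 1.08 ± 0.15 (edgeR's adjusted p = 3.74e-07). This site had the lowest adjusted p of the window and held under all 17 alternatives. Pdcd1 site 6, chr1:95939077-95939234, was almost closed in WT cTreg cells, with 5.55 and 6.43 CPM in WT eTreg, against 0.964 and 0.474 CPM in WT cTreg libraries (log2 fold change 3.04 ± 0.46, edgeR's adjusted p = 1.75e-06). Pdcd1 site 7, chr1:95942231-95942303, had 68 counts over the WT eTreg libraries, against 5 over the WT cTreg libraries, a 13.3-fold ratio with a 95% interval of 4.27 to 143, which covers counting error only and takes every 2 counts as 1 observation (edgeR's adjusted p = 0.000226). Pdcd1 site 9, chr1:95944697-95944847, had 7.03 and 8.19 CPM in WT eTreg, against 1.53 and 2.84 CPM in WT cTreg libraries, a log2 fold change of 1.80 ± 0.34 (edgeR's adjusted p = 8.3e-05).

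Less secure were 3 further rises of the Pdcd1 window. Pdcd1 site 12, chr1:95947787-95947849, had 4.9 and 4.06 CPM in WT eTreg, against 0.562 and 1.82 CPM in WT cTreg libraries (log2 fold change 1.89 ± 0.45, edgeR's adjusted p = 0.00137, 0.0992 after omitting WT cTreg replicate 1). Pdcd1 site 17, chr1:95950582-95950690, and site 22, chr1:95971443-95971498, had log2 fold changes of 1.92 and 1.27 with edgeR's adjusted p of 0.0449 and 0.0249. Leaving out any of the 4 WT libraries ended both calls, with edgeR's adjusted p of 0.121 to 0.325 at site 17 and 0.0824 to 0.229 at site 22. None of the 22 tested sites was called lower in WT eTreg cells, and 3 of them had a negative log2 fold change.

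At Lag3 and Havcr2 few sites differed. Lag3 site 2, chr6:124850547-124850664, was lower in WT eTreg cells, with 0.925 and 1.76 CPM there, against 4.9 and 5.45 CPM in WT cTreg libraries (log2 fold change -1.89 ± 0.36, edgeR's adjusted p = 9.38e-05). Lag3 site 3, chr6:124851141-124851280, across a gap of 0.48 kb, went the other way, with 5.92 and 6.02 CPM in WT eTreg, against 3.53 and 2.69 CPM in WT cTreg libraries (log2 fold change 0.94 ± 0.32, edgeR's adjusted p = 0.023). The call at Lag3 site 3 was lost without any single WT library, with edgeR's adjusted p of 0.0677 to 0.231. Havcr2 site 11, chr11:46275545-46275765, had 13.1 and 13.2 CPM in WT eTreg, against 5.78 and 6.32 CPM in WT cTreg libraries, a log2 fold change of 1.12 ± 0.23 (edgeR's adjusted p = 0.000266). Havcr2 site 13, chr11:46287770-46288020, had 9.43 and 11.2 CPM in WT eTreg, against 4.42 and 4.82 CPM in WT cTreg libraries, a log2 fold change of 1.16 ± 0.30. The edgeR adjusted p was 0.0025, but 0.0548 after omitting WT cTreg replicate 1 and 0.0626 after omitting WT eTreg replicate 2.

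**Figure D2:**
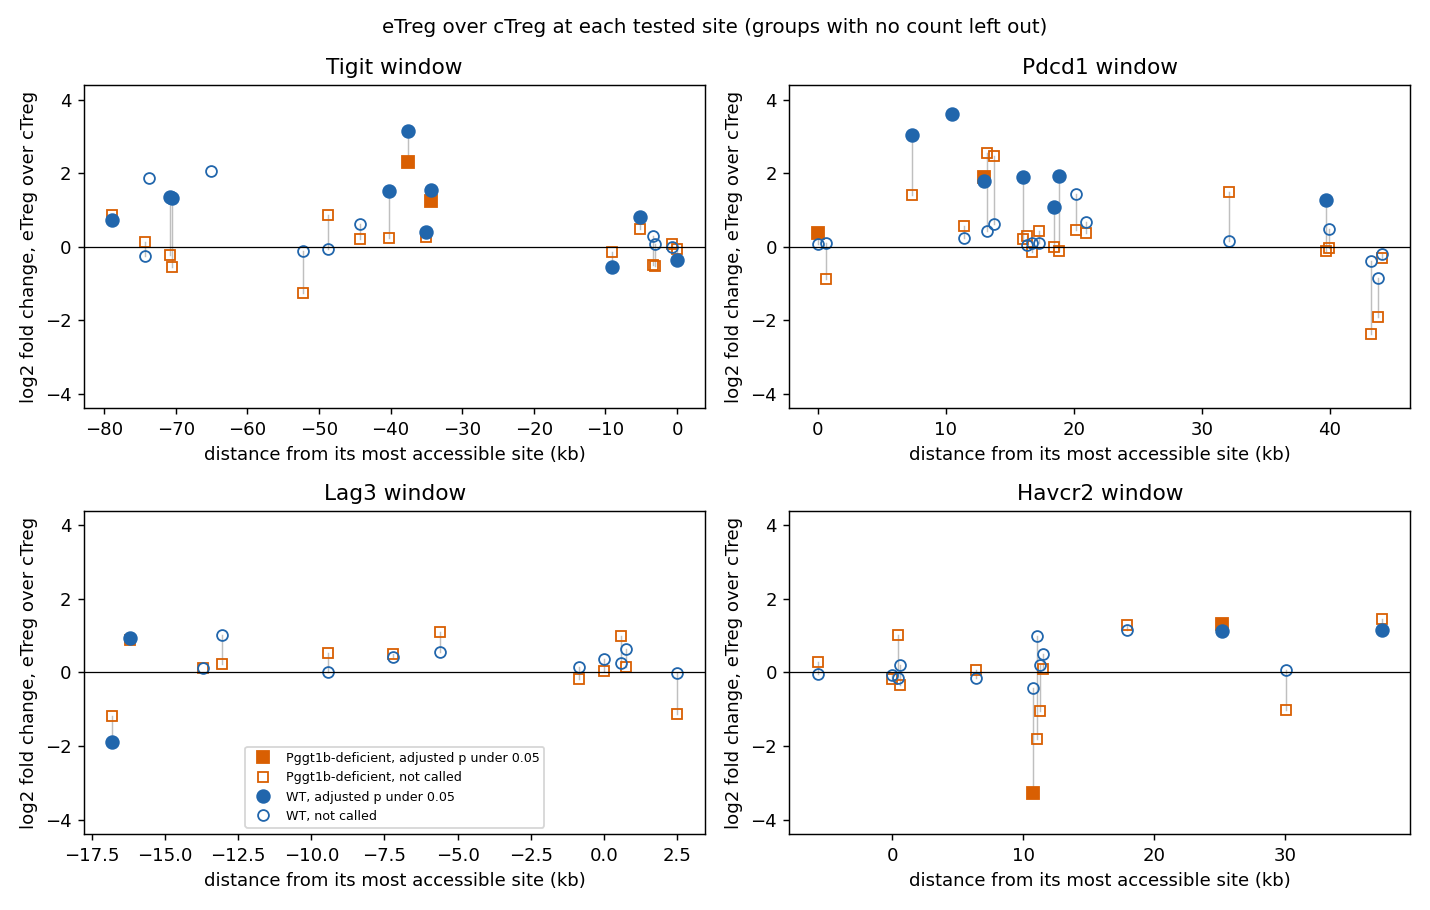
Log2 fold change of eTreg over cTreg cells (linear axis) at each tested site against its distance in kb from the most accessible site of the window; squares are Pggt1b-deficient and circles WT cells, filled where the adjusted p was under 0.05, with grey lines joining a site's values. A site is not drawn for a genotype where a group had no count. In WT 4 of the 8 called rises of the Tigit window lie near site 11, with 3.16. Of the 7 in the Pdcd1 window 6 lie within 11.6 kb, a stretch of 12 tested sites.

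The same subset comparison in Pggt1b-deficient cells, which shares no library with the WT one, called fewer sites. Of the 66 tested members 5 rose and 1 fell in Pggt1b-deficient eTreg relative to Pggt1b-deficient cTreg cells, or 7.58% and 1.52%, beside a background of 4.59% and 4.52% (edgeR, adjusted p under 0.05). Of the 18 sites higher in WT eTreg cells, 13 had a positive and 5 a negative log2 fold change here, with a median of 0.37, and 4 were called higher, or 22.2%. Over all 10397 sites higher in WT eTreg cells the median was 0.52, 80% were positive and 21.6% were called higher. The members therefore lay near the background in this respect. Their WT median of 1.34 is a description, since the WT values chose them.

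The 4 sites that rose in both genotypes were Tigit sites 11 and 13, Pdcd1 site 9 and Havcr2 site 11. Tigit site 11 had 8.96 and 16.6 CPM in Pggt1b-deficient eTreg, against 2.24 and 2.75 CPM in Pggt1b-deficient cTreg libraries, a log2 fold change of 2.31 ± 0.37 (edgeR's adjusted p = 3.44e-05). The groups did not overlap, although the eTreg libraries differed widely, and the call held under all 16 alternatives. Tigit site 13 had 10.7 and 15.4 CPM in Pggt1b-deficient eTreg, against 5.37 and 5.51 CPM in Pggt1b-deficient cTreg libraries, a log2 fold change of 1.24 ± 0.32. The edgeR adjusted p was 0.0104, but 0.06 after omitting Pggt1b-deficient cTreg replicate 1 and 0.102 after omitting Pggt1b-deficient eTreg replicate 2. Pdcd1 site 9 had 7.16 and 3.55 CPM in Pggt1b-deficient eTreg, against 1.79 and 1.1 CPM in Pggt1b-deficient cTreg libraries, a log2 fold change of 1.90 ± 0.54, close to its WT value. The edgeR adjusted p was 0.019, but 0.0968 after omitting Pggt1b-deficient cTreg replicate 2 and 0.367 after omitting Pggt1b-deficient eTreg replicate 1. Havcr2 site 11 had 10.7 and 8.29 CPM in Pggt1b-deficient eTreg, against 4.25 and 3.44 CPM in Pggt1b-deficient cTreg libraries, a log2 fold change of 1.31 ± 0.36. The edgeR adjusted p was 0.0163, but 0.0772 after omitting Pggt1b-deficient cTreg replicate 2 and 0.198 after omitting Pggt1b-deficient eTreg replicate 1.

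**Figure D3:**
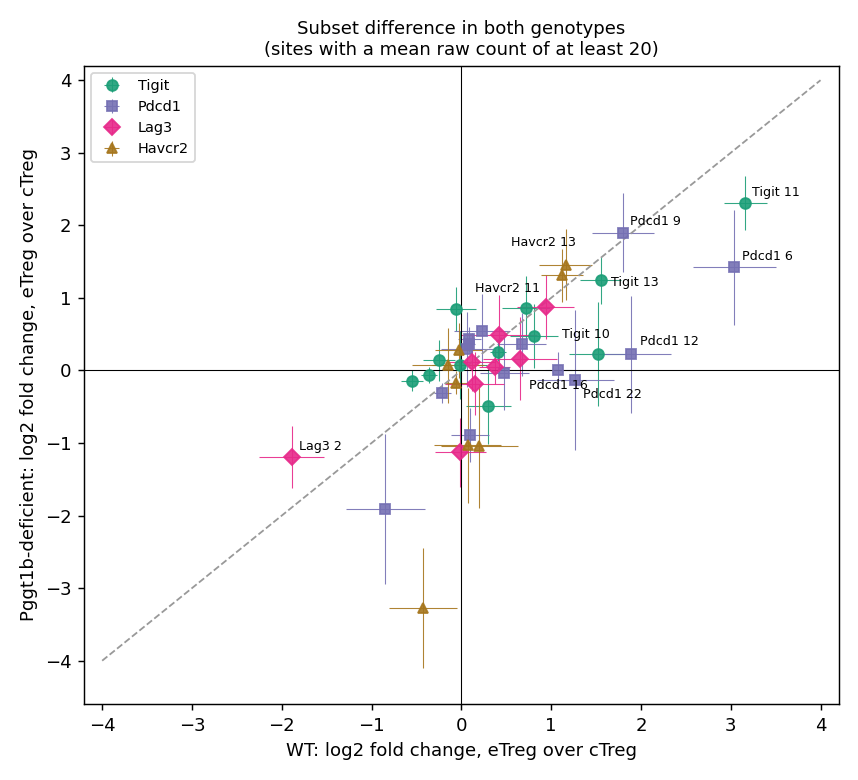
Log2 fold change of eTreg over cTreg cells in Pggt1b-deficient cells (vertical axis) against WT cells (horizontal axis) at the 42 tested sites with a mean raw count of at least 20; error bars are standard errors, and the dashed line marks equal values. Tigit site 11 lies far along both axes at 2.31 and 3.16, whereas Pdcd1 site 16 lies at 0.00 and 1.08.

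The fifth rise in Pggt1b-deficient cells was at the strong Pdcd1 site 2, which had 194 and 184 CPM in Pggt1b-deficient eTreg, against 143 and 153 CPM in Pggt1b-deficient cTreg libraries. The log2 fold change was 0.36 ± 0.09 (edgeR's adjusted p = 0.00586), but the adjusted p was 0.126 after omitting Pggt1b-deficient cTreg replicate 1 and 0.0893 after omitting Pggt1b-deficient eTreg replicate 1. The fall was at Havcr2 site 6, chr11:46261224-46261330, with 2 counts over the Pggt1b-deficient eTreg libraries, against 81 over the Pggt1b-deficient cTreg libraries. The ratio was 9.81-fold lower, with a 95% interval of 1.64 to 392 that covers counting error only, and the edgeR adjusted p was 0.00922. It was 0.0511 after omitting Pggt1b-deficient cTreg replicate 2 and 0.166 after omitting Pggt1b-deficient eTreg replicate 1. Havcr2 site 13 had 2.69 and 12.4 CPM in Pggt1b-deficient eTreg, against 2.02 and 3.17 CPM in Pggt1b-deficient cTreg libraries, so that the groups overlapped. Its log2 fold change of 1.46 ± 0.49 had edgeR's adjusted p of 0.0515, but 0.0477 after omitting Pggt1b-deficient cTreg replicate 2, 0.00301 after omitting Pggt1b-deficient eTreg replicate 1, and 0.0441 with the replicate number as a block.

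**Figure D4:**
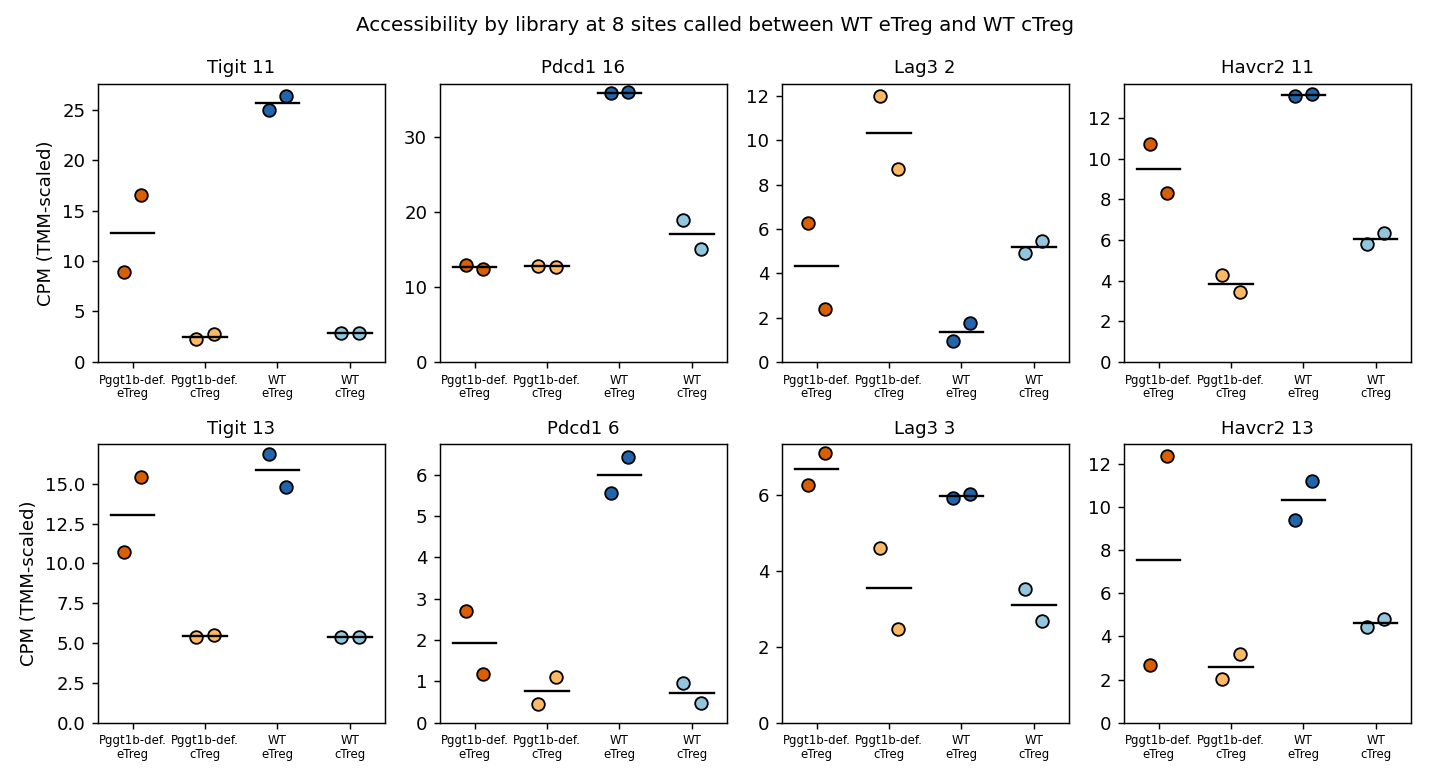
CPM of each library (linear axes from 0) at 8 sites called between WT eTreg and WT cTreg cells, the 2 of each window with the lowest adjusted p; points are libraries and lines are group means. Pggt1b-deficient eTreg libraries lie above both cTreg groups at Tigit site 11, at 8.96 and 16.6 CPM, and level with Pggt1b-deficient cTreg libraries at Pdcd1 site 16, at 13 and 12.4 CPM.

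Loss of Pggt1b was then compared within each subset, starting with cTreg cells. None of the 66 tested members was called in Pggt1b-deficient against WT cTreg cells, beside a background of 0.530% higher and 1.69% lower sites (edgeR). At an unadjusted p under 0.05 there were 14 of the 66 members, beside 10336 of all 75352 tested sites. DESeq2 called 0 members, beside 2.6% of all sites it tested, and had 8 members at that unadjusted p. Limma-voom with group weights called 3 of the 66 members, beside 3.8% of all tested sites. The median log2 fold change was -0.29 over the members, or -0.24 with the site that had an empty group at its bound, and -0.03 over all tested sites. The sites nearest to a call were Tigit site 12, with 53 and 61.2 CPM in Pggt1b-deficient cTreg, against 75.8 and 68.6 CPM in WT cTreg libraries (log2 fold change -0.34 ± 0.10, edgeR's adjusted p = 0.061), and Tigit site 16, chr16:43696065-43696190, with 3.69 and 3.44 CPM in Pggt1b-deficient cTreg, against 6.91 and 7.35 CPM in WT cTreg libraries. Tigit site 16 had a log2 fold change of -0.99 ± 0.29 (edgeR's adjusted p = 0.0642). Lag3 site 2 pointed upward, with 12 and 8.68 CPM in Pggt1b-deficient cTreg, against 4.9 and 5.45 CPM in WT cTreg libraries (log2 fold change 1.0 ± 0.30, edgeR's adjusted p = 0.0668). The libraries of the groups lay apart at each of these sites. After omitting Pggt1b-deficient eTreg replicate 1, a library of neither group that enters the shared estimate of spread, the adjusted p of these 3 sites was 0.0217, 0.0264 and 0.0215, and without replicate 2 it was 0.022, 0.0262 and 0.0205.

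In eTreg cells more members differed by genotype. Of the 66 tested members 3 were higher and 7 lower in eTreg cells without Pggt1b than in WT eTreg cells, or 4.55% and 10.6%, beside a background of 4.66% higher and 6.43% lower (edgeR, adjusted p under 0.05). The median log2 fold change was -0.53 over the members, or -0.48 with sites that had an empty group at their bound, and -0.09 or -0.04 over all tested sites. The Tigit window had 1 higher and 4 lower sites, the Pdcd1 window 1 and 3, the Lag3 window 1 and 0, and the Havcr2 window 0 and 0. This comparison uses the same WT eTreg libraries as the WT subset comparison, so that their values are not independent. The count of 10 was 3, all lower, by limma-voom with group weights, where the share over all tested sites went from 11.1% to 6.09%. Both the count and that share also fell after omitting either WT eTreg replicate or Pggt1b-deficient eTreg replicate 1.

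The most secure fall was at Pdcd1 site 16, which had 13 and 12.4 CPM in Pggt1b-deficient eTreg, against 35.9 and 36 CPM in WT eTreg libraries. The log2 fold change was -1.50 ± 0.22 (edgeR's adjusted p = 1.04e-05), and the call held under all 16 alternatives. Pggt1b-deficient eTreg and cTreg libraries were level at this site, with 12.8 and 12.7 CPM in Pggt1b-deficient cTreg libraries, and the log2 fold change between them was 0.00 ± 0.26. The test of the difference itself, the effect of Pggt1b loss in eTreg minus that in cTreg cells, gave -1.08 ± 0.29 (edgeR's adjusted p = 0.0457), from -1.50 in eTreg and -0.42 ± 0.17 in cTreg cells. It was the only member called in that test, 0 higher and 1 lower, beside a background of 0.957% and 0.555%, and it was lost without any single library, with edgeR's adjusted p of 0.0615 to 0.217. Pdcd1 site 7 had no count in Pggt1b-deficient eTreg libraries, against 68 counts in WT eTreg libraries, at least 1.74-fold lower against a floor of 6 counts over the group. The edgeR adjusted p was 0.0219, but 0.172 after omitting WT eTreg replicate 2, 0.119 after omitting Pggt1b-deficient eTreg replicate 1 and 0.0615 without replicate 2. Pdcd1 site 3, chr1:95932298-95932632, had 6.72 and 3.55 CPM in Pggt1b-deficient eTreg, against 11.9 and 11.5 CPM in WT eTreg libraries (log2 fold change -1.14 ± 0.36, edgeR's adjusted p = 0.0312). The adjusted p at Pdcd1 site 3 was 0.0843 and 0.0825 after omitting WT eTreg replicate 1 or 2 and 0.197 after omitting Pggt1b-deficient eTreg replicate 2.

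In the Tigit window 3 of the 4 falls lay in the run around site 11. Tigit site 11 had 8.96 and 16.6 CPM in Pggt1b-deficient eTreg, against 25 and 26.4 CPM in WT eTreg libraries (log2 fold change -1.06 ± 0.27, edgeR's adjusted p = 0.00747). The adjusted p was 0.0685 after omitting WT eTreg replicate 2 and 0.209 after omitting Pggt1b-deficient eTreg replicate 1, the lower of that pair. Tigit site 12 had 62.7 and 74.6 CPM in Pggt1b-deficient eTreg, against 100 and 92.1 CPM in WT eTreg libraries (log2 fold change -0.50 ± 0.12, edgeR's adjusted p = 0.00506, 0.121 after omitting Pggt1b-deficient eTreg replicate 1). Tigit site 10 had 6 counts over the Pggt1b-deficient eTreg libraries, against 201 over the WT eTreg libraries, 5.14-fold lower with a 95% interval of 1.7 to 25.2 (edgeR's adjusted p = 0.0035, 0.0721 by limma-voom with group weights). By contrast Tigit site 13, of the same run, was not called, with 10.7 and 15.4 CPM in Pggt1b-deficient eTreg, against 16.9 and 14.8 CPM in WT eTreg libraries and overlapping groups (log2 fold change -0.30 ± 0.28, edgeR's adjusted p = 0.542). The fourth fall, at Tigit site 16, had 2.69 and 2.37 CPM in Pggt1b-deficient eTreg, against 9.43 and 8.19 CPM in WT eTreg libraries (log2 fold change -1.78 ± 0.45, edgeR's adjusted p = 0.00689, 0.0531 after omitting Pggt1b-deficient eTreg replicate 1).

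The 3 rises in Pggt1b-deficient eTreg cells were at Tigit site 14, Pdcd1 site 2 and Lag3 site 2, whose calls were kept in 5, 3 and 11 of 16 alternatives. Tigit site 14, which was lower in WT eTreg than in WT cTreg cells, had 43.4 and 48.5 CPM in Pggt1b-deficient eTreg, against 29 and 36.5 CPM in WT eTreg libraries (log2 fold change 0.47 ± 0.16, edgeR's adjusted p = 0.0424). Leaving out any of 7 libraries, all but WT eTreg replicate 2, ended this call, with edgeR's adjusted p of 0.0509 to 0.285. Pdcd1 site 2 had 194 and 184 CPM in Pggt1b-deficient eTreg, against 159 and 159 CPM in WT eTreg libraries (log2 fold change 0.25 ± 0.08, edgeR's adjusted p = 0.046). This call too ended without any single library, at 0.0515 to 0.243. Lag3 site 2 had 6.27 and 2.37 CPM in Pggt1b-deficient eTreg, against 0.925 and 1.76 CPM in WT eTreg libraries, with replicate 2 close to the WT eTreg libraries (log2 fold change 1.70 ± 0.54, edgeR's adjusted p = 0.0328). The adjusted p was 0.152 after omitting WT eTreg replicate 1 and 0.628 after omitting Pggt1b-deficient eTreg replicate 1.

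**Figure D5:**
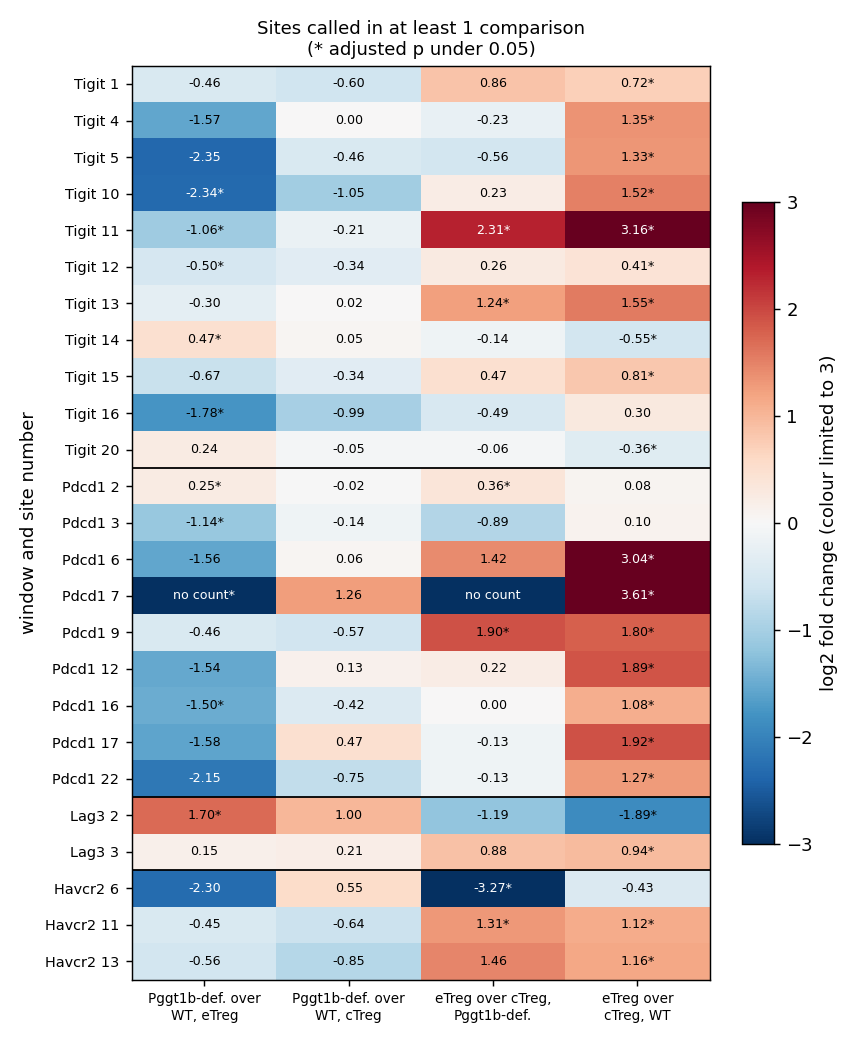
Log2 fold changes, printed and as colour limited to 3, at the 25 member sites called in at least 1 comparison, with an asterisk at an adjusted p under 0.05 and "no count" where a compared group was empty. The Pggt1b-deficient over WT column of cTreg cells has no asterisk, and Pdcd1 site 16 reads -1.50 in the eTreg column beside 1.08 in the WT subset column.

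Of the 72 sites, 25 were called in at least 1 of the 5 tests, 41 were tested without a call and 6 had too few counts for the main test. This is an account of the members only, since the share of all tested sites called in at least 1 test was not counted. The WT subset comparison alone called 28.7% of all tested sites. The untested sites were Tigit site 18, Pdcd1 sites 1, 4, 5 and 19, and Lag3 site 1. Tigit site 18, chr16:43698255-43698306, had 25 counts over the WT eTreg libraries, against 0 over the WT cTreg libraries, at least 4.09-fold higher. Pdcd1 site 4, chr1:95932838-95932856, had 22 counts over the WT eTreg libraries, against 3 over the WT cTreg libraries. That is 7.19-fold higher, with a 95% interval of 1.18 to 50.1. Pdcd1 site 5 had 14 counts against 1, 13.7-fold higher with a 95% interval of 0.882 to 309. Pdcd1 sites 1 and 19 averaged 0.438 and 0.582 CPM in WT eTreg, against 0.398 and 0.437 CPM in WT cTreg libraries. Lag3 site 1 was lower in WT eTreg libraries, at 0.296 against 0.676 CPM. In the Havcr2 window the 4 sites numbered 6 to 9 lie within 0.8 kb and hold 12 counts in all over the Pggt1b-deficient eTreg libraries. All 4 had a negative log2 fold change against WT eTreg cells, none of them called. The 95% interval of each of these ratios spans equal levels. Negative values were also found at 47 of the 66 tested members and 41555 of all 75352 tested sites.

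The members next to the window borders and the sites just beyond them are given as group means, without a test. At the start of the Tigit window the member chr16:43620597-43620779 averaged 5.95 CPM in Pggt1b-deficient eTreg, 3.35 in Pggt1b-deficient cTreg, 8.32 in WT eTreg and 5.05 in WT cTreg libraries. Beyond that border chr16:43619436-43619587 averaged 2.83 CPM in Pggt1b-deficient eTreg, 2.16 in Pggt1b-deficient cTreg, 4.18 in WT eTreg and 3.15 in WT cTreg libraries. At the end of the Tigit window the member chr16:43699061-43699959 averaged 93.7 CPM in Pggt1b-deficient eTreg, 97.4 in Pggt1b-deficient cTreg, 78.9 in WT eTreg and 101 in WT cTreg libraries. Beyond that border chr16:43700770-43700896 averaged 5.2 CPM in Pggt1b-deficient eTreg, 0.999 in Pggt1b-deficient cTreg, 5.23 in WT eTreg and 0.961 in WT cTreg libraries. The site beyond the end of the Tigit window was higher in both eTreg groups than in both cTreg groups, unlike the member beside it. At the start of the Pdcd1 window the member chr1:95930929-95930936 averaged 0.224 CPM in Pggt1b-deficient eTreg, 0.319 in Pggt1b-deficient cTreg, 0.438 in WT eTreg and 0.398 in WT cTreg libraries. Beyond that border chr1:95908427-95908488 averaged 1.34 CPM in Pggt1b-deficient eTreg, 2.17 in Pggt1b-deficient cTreg, 2.84 in WT eTreg and 3.07 in WT cTreg libraries. At the end of the Pdcd1 window the member chr1:95975815-95975985 averaged 43.5 CPM in Pggt1b-deficient eTreg, 53.7 in Pggt1b-deficient cTreg, 43.4 in WT eTreg and 50.1 in WT cTreg libraries. Beyond that border chr1:95988449-95988675 averaged 32.2 CPM in Pggt1b-deficient eTreg, 42.4 in Pggt1b-deficient cTreg, 25.1 in WT eTreg and 45.5 in WT cTreg libraries. At the start of the Lag3 window the member chr6:124848325-124848371 averaged 0.448 CPM in Pggt1b-deficient eTreg, 1.07 in Pggt1b-deficient cTreg, 0.296 in WT eTreg and 0.676 in WT cTreg libraries. Beyond that border chr6:124838188-124838288 averaged 2.83 CPM in Pggt1b-deficient eTreg, 5.13 in Pggt1b-deficient cTreg, 3.93 in WT eTreg and 4.95 in WT cTreg libraries. At the end of the Lag3 window the member chr6:124869797-124869977 averaged 2.97 CPM in Pggt1b-deficient eTreg, 6.74 in Pggt1b-deficient cTreg, 5.93 in WT eTreg and 6.05 in WT cTreg libraries. Beyond that border chr6:124880804-124881105 averaged 21.4 CPM in Pggt1b-deficient eTreg, 23 in Pggt1b-deficient cTreg, 25.7 in WT eTreg and 20.4 in WT cTreg libraries. At the start of the Havcr2 window the member chr11:46244780-46244856 averaged 6.77 CPM in Pggt1b-deficient eTreg, 5.64 in Pggt1b-deficient cTreg, 6.9 in WT eTreg and 7.01 in WT cTreg libraries. Beyond that border chr11:46235150-46235306 averaged 13 CPM in Pggt1b-deficient eTreg, 13.4 in Pggt1b-deficient cTreg, 7.5 in WT eTreg and 13.5 in WT cTreg libraries. At the end of the Havcr2 window the member chr11:46287770-46288020 averaged 7.56 CPM in Pggt1b-deficient eTreg, 2.59 in Pggt1b-deficient cTreg, 10.3 in WT eTreg and 4.62 in WT cTreg libraries. Beyond that border chr11:46379686-46379726 averaged 0.448 CPM in Pggt1b-deficient eTreg, 0.362 in Pggt1b-deficient cTreg, 1.98 in WT eTreg and 1.07 in WT cTreg libraries.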

How the data were processed

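ATAC-seq counts per accessible site in 8 libraries were deposited by the authors as 1 table of raw counts on mm9, with no normalization. Tools named in the submitters' processing notes are bedtools, MACS2 2.1.1, Picard 2.9.4, SAMtools and Trimmomatic 0.36. No source used here gives the aligner, read shift, peak threshold or pooling. Groups came from the sample titles, and 0 sample columns were left unused. Low counts were mostly even (66.1% to 77.4% of counts of 1 to 10), so intervals took every 2 counts as 1 observation, cover counting error only, and use a floor of 6 counts over a group. Site starts may be counted from 0 or from 1. All 8 libraries were fitted together with edgeR 4.0.16 (R 4.3.3; filterByExpr, TMM scaling, quasi-likelihood test, Benjamini-Hochberg adjustment over 75352 sites), and the steps were tested on simulated data. Sites named were the most accessible of each window and up to 6 per window with an adjusted p under 0.05 and a mean raw count of at least 20; the other called or untested sites and the runs of neighbouring sites were picked out after their values were seen. The members and lists were chosen with earlier results of these data known. Alternatives were DESeq2 1.42.0, limma-voom (limma 3.58.1), other scalings and filters, thinned counts, a replicate block and left-out libraries. Marker genes and other pathway genes were not analysed here, because no gene positions on mm9 were used.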

Additional observations from a re-analysis of the deposited data

Results flagged for a closer look

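At Pdcd1 site 16 (chr1:95950029-95950415) the effect of Pggt1b loss differed between the subsets by the test of the difference itself. The log2 fold change of Pggt1b-deficient over WT cells was -1.50 ± 0.22 in eTreg and -0.42 ± 0.17 in cTreg cells, a difference of -1.08 ± 0.29 (edgeR adjusted p = 0.0457). Over the alternatives the adjusted p ran from 0.0334 to 0.286, and 3 of 15 kept the call. The Pggt1b-deficient eTreg libraries are the shallowest of the series. With every library thinned to the smallest, the difference was -1.18 and the edgeR adjusted p 0.286.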

How the results depend on the processing

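No called fold change of a member site changed sign under the alternatives run, whereas some values that were not called did, such as Tigit site 11 (chr16:43661741-43662042) between Pggt1b-deficient and WT cTreg cells, with a log2 fold change of 1.07 on thinned counts and -0.21 in the full data. The number of sites called between WT eTreg and WT cTreg cells, 21 in the full data, was 13 to 25 when 1 library was left out, of which 12 to 21 were among the original 21, and 6 when every library was thinned to the depth of the shallowest, where 30 members could be tested. Between Pggt1b-deficient eTreg and cTreg cells the count of 6 became 4 to 6 with 1 library left out (2 to 6 of them shared) and 2 with thinned counts. Between Pggt1b-deficient and WT cTreg cells the count of 0 became 0 to 4 with 1 library left out, 4 with the libraries of those groups alone, 3 with limma-voom weights and 3 without both Pggt1b-deficient eTreg libraries. Between Pggt1b-deficient and WT eTreg cells the count of 10 became 4 to 12 with 1 library left out (3 to 8 of them shared), 6 with the libraries of those groups alone, 3 with limma-voom weights and 5 with thinned counts. The count of 1 in the test of the difference became 0 to 2 with 1 library left out, none of them the original site, and 0 with total counts, DESeq2, limma-voom weights and thinned counts, with 9, 7, 7 and 4 members at an unadjusted p under 0.05. The share of all tested sites called moved too, also with 1 library left out, so a moving count is not particular to the members. On thinned counts it went from 28.7% to 14.6% between WT subsets and from 9.12% to 8.47% between Pggt1b-deficient subsets. Between genotypes in cTreg cells it went from 2.21% to 5% with those groups alone and 3.8% with limma-voom weights. In eTreg cells these were 11.1%, 8.73% and 6.09%, with 9.56% on thinned counts. For the test of the difference it went from 1.51% to 2.24% with DESeq2 and 0.468% on thinned counts. The cause of these changes was not tested, and thinning also left fewer testable sites. Deviations of same-numbered libraries correlated at -0.0164 to 0.057. Counting noise enters these deviations, so the values cannot tell whether replicate numbers pair samples. With the replicate block the counts in the same order of comparisons were 20, 7, 0, 9 and 1. The shares of all tested sites called were 26.8%, 8.42%, 2.08%, 10.3% and 1.38%. Depth limits the Pggt1b-deficient eTreg values most, with a median of 6 and 4 counts at the members.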
